A study of Homo sapiens with 12 samples.

Results

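The HOX genes are 39 protein-coding homeobox genes that stand in 4 clusters on separate chromosomes, HOXA on chromosome 7 (11 genes), HOXB on chromosome 17 (10 genes), HOXC on chromosome 12 (9 genes) and HOXD on chromosome 2 (9 genes). They were chosen by symbol alone, as all genes named HOXA to HOXD followed by a number, among 60662 genes in the RNA count files. The gene number gives the paralog group, 1 to 13, which marks the place in the cluster. Here paralogs 1 to 3 are called anterior (8 genes), 4 to 8 central (15 genes) and 9 to 13 posterior (16 genes). A table of ribosome footprints held 33 of the 39 genes among its 12224 genes.

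HOX proteins are transcription factors that tell cells where they lie along the head to tail axis of the embryo. Genes at one end of each cluster act in the head and neck, and genes at the other end act in the trunk, limbs and urogenital tract. Polycomb complexes keep the clusters silent where they are not needed, Trithorax-group proteins keep them active, and TALE homeodomain proteins such as PBX and MEIS bind DNA together with HOX proteins. Cultured kidney lines keep transcribing many HOX genes.

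The cells were HEK293T, an established human embryonic kidney line of wild-type genotype, as 1 line throughout. One arm received 20 µM STM2457, an inhibitor of METTL3, for 6 h in 0.2% DMSO, and the other received 0.2% DMSO alone for the same time. METTL3 is the enzyme that writes N6-methyladenosine (m6A) on mRNA. Both arms were given 10% extra serum 1 h before lysis and 100 µg/ml cycloheximide, which stalls ribosomes, for the last 3 min. Each arm had 4 RNA-seq libraries of poly(A) RNA and 2 Ribo-seq libraries, in which the 26 to 34 nt of mRNA held by a ribosome are sequenced. Nothing in the labels says that replicates were grown separately, and the p-values therefore speak of spread between libraries that could be technical alone. The comparison asks how HOX RNA, footprints and translational efficiency differ under this treatment, and m6A itself was not measured in these files.

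RNA-seq libraries held 43291730 to 51645739 counts, and the Ribo-seq libraries 3198063 to 4711513 recovered footprint reads. All 10 listed HEK293T markers passed the filter on low counts, with summed levels of 1263 to 1299 CPM in STM2457 libraries and 1099 to 1137 CPM in DMSO libraries. Most of this sum was VIM (mean 527 CPM with STM2457, 544 CPM with DMSO) and NEFM (275 and 244 CPM), while PAX2 was at 4.71 CPM in both arms. Of the 10 markers 6 were higher and 1 lower, against 26.2% and 21.6% of all genes tested. With ERCC spike-ins as the scale 3 were higher and 2 lower, against 12.1% and 47.1% of all genes. The part of these markers in the results was not tested. Fibroblast markers summed to 18.4 to 19.8 CPM with STM2457 and 17.7 to 22.3 CPM with DMSO, and markers of epithelial carcinoma lines and blood cells to at most 7.97 and 2.4 CPM in any library. None of these other markers passed the test on the TMM scale. On the ERCC scale 2 of 4 fibroblast, 1 of 2 epithelial and the 1 tested blood marker were lower, where 47.1% of all genes were lower. With a replicate block 1 fibroblast marker was lower, against 25.0% of all genes. KRT5 and HBB were at 0 in every library. In bulk RNA, fewer cells with a transcript and less of it per cell cannot be told apart.

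HOX RNA was higher with STM2457 in all 4 clusters. Of the 39 genes, 37 passed the filter on low counts and 31 of these were higher at an adjusted p under 0.05 (edgeR quasi-likelihood test, Benjamini-Hochberg adjusted over 17807 genes), against 26.2% of all genes tested. No HOX gene was lower in this fit, against 21.6% of all genes tested. With the replicate number as a block 32 HOX genes were higher and 1, HOXD4, lower, against 28.6% and 25.0% of all genes. The median HOX log2 fold change was 0.50, against 0.00 over all genes. In 30 of the 37 genes every STM2457 library lay above every DMSO library, against 24.9% of all genes. An increase of at least 1.5-fold was called in 14 HOX genes (6.88% of all genes) and of at least 2-fold in 3, HOXD13, HOXC9 and HOXA4 (1.68% of all genes). No HOX gene was lower by these sizes, against 5.54% of all genes at 1.5-fold and 2.35% at 2-fold, and in none did every STM2457 library lie below every DMSO library, against 19.8%. With the ERCC spike-ins as the scale, the median of all genes moved to -0.19 and that of the HOX genes to 0.30, and 22 HOX genes were higher and 2, HOXC4 and HOXD4, lower, against 12.1% and 47.1% of all genes.

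**Figure D1:**
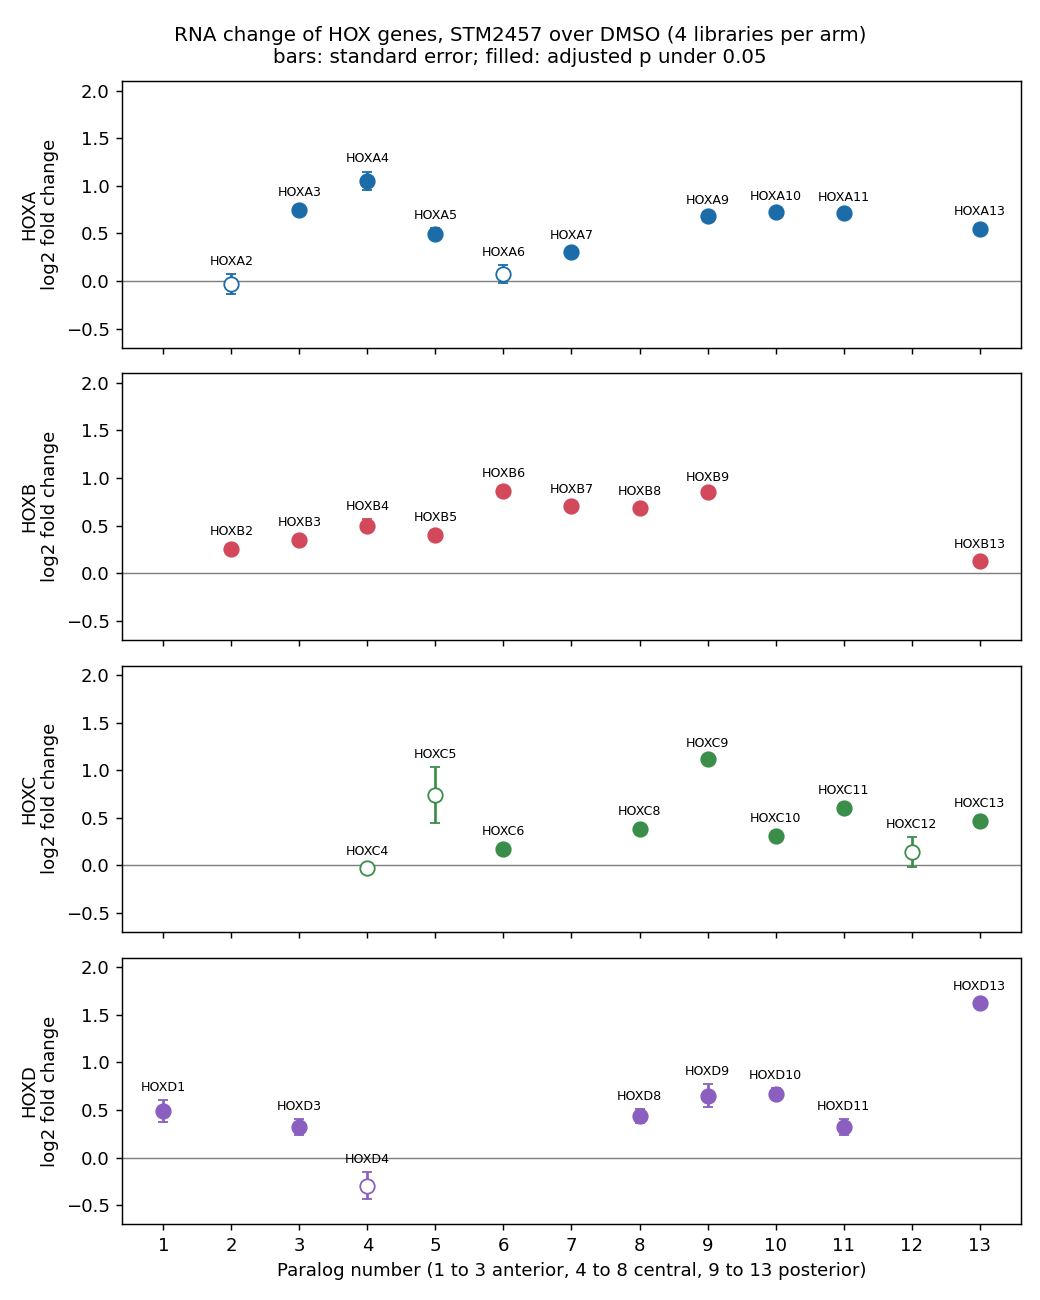
RNA log2 fold change (STM2457 over DMSO, with standard error) of 36 tested HOX genes, 1 panel per cluster, against paralog number; filled points passed the test. Filled points lie above 0 in every panel, though HOXC6 and HOXB13 were just below 0 on the ERCC scale, and HOXD13 is highest at 1.63.

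HOXD13, a posterior gene that shapes the digits and genital tubercle, had the largest RNA change of the 37. It was at 509.8, 509, 534 and 459 CPM in STM2457 libraries, against 164, 163, 159 and 164 CPM in DMSO libraries, where libraries stand in the order of replicates 1 to 4 and CPM are counts relative to the TMM-scaled library total. The lowest STM2457 library was far above the highest DMSO library. The means were 503 ± 31.4 CPM in STM2457 libraries and 163 ± 2.35 CPM in DMSO libraries (SD, n = 4 each), a 3.09-fold difference (log2 fold change 1.63, SE 0.04, edgeR adjusted p = 1.62e-11). HOXC9, which sets thoracic motor neuron identity, was at 44.3, 44.0, 45.8 and 41.8 CPM in STM2457 libraries, against 19.8, 20.3, 20.3 and 20.9 CPM in DMSO libraries (log2 fold change 1.11, SE 0.04, edgeR adjusted p = 2.32e-10). The HOXC9 arms did not overlap, and every STM2457 library had over 40 CPM. HOXA4, a central gene that acts in the neck region, was at 11.1, 9.0, 11.8 and 10.7 CPM in STM2457 libraries, against 5.07, 4.41, 5.67 and 5.36 CPM in DMSO libraries (log2 fold change 1.06, SE 0.09, edgeR adjusted p = 1.29e-06). Its arms did not overlap either, at a low level in both.

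The promoters of HOXD13 and HOXA4 are shown beside those of HOXD4 and HOXA6, genes of the same 2 clusters whose RNA did not pass the main test, so that promoters of genes on both sides of its threshold can be compared. HOXD4 was called lower in several alternative fits, among them ERCC scaling and the replicate block, so it is not an unchanged gene for comparison. Each promoter runs from 250 bases before to 50 bases after the annotated start, 5′ to 3′ on the gene's strand, from RefSeq (GRCh38.p14). HOXD13 lies at chr2:176092471-176092770, plus strand, HOXA4 at chr7:27130708-27131007, minus strand, HOXD4 at chr2:176151300-176151599, plus strand and HOXA6 at chr7:27147725-27148024, minus strand. Capitals mark matches, on either strand, to TATAAA (bound by the TATA-binding protein), CCAAT (the box bound by NF-Y), TGATNNAT (a joint PBX and HOX motif) and AGGTCA (the core motif of retinoic acid receptors).
HOXD13: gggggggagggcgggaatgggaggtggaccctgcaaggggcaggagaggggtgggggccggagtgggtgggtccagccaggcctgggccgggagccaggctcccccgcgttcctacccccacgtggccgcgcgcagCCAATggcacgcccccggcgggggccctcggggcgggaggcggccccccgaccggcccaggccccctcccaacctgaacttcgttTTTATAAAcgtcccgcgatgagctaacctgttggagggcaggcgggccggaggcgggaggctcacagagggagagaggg
HOXA4: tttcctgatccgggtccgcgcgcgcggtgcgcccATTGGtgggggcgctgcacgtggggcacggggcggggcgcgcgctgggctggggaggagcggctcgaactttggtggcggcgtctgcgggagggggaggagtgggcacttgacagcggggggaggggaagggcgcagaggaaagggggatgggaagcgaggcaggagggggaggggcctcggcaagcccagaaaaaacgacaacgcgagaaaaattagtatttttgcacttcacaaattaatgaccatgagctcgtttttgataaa
HOXD4: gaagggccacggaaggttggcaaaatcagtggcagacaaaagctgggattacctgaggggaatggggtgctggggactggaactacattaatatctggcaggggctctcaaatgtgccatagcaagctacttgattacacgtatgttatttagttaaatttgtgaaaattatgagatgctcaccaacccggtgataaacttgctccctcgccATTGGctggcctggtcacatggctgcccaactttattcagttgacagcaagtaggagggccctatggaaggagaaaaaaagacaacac
HOXA6: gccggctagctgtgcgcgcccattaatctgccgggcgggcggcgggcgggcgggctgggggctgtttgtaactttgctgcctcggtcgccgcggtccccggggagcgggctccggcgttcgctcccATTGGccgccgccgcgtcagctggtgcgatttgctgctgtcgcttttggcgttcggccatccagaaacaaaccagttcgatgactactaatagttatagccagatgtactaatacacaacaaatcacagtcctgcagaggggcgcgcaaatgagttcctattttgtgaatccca

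The HOXD13 promoter held 1 CCAAT and a TATAAA on each strand, which overlap in 1 run of capitals, and the other 3 promoters each held 1 CCAAT on the opposite strand, which reads ATTGG. The RefSeq table held a promoter for 20 of the 39 HOX genes, 27 entries in all with 7 for HOXA3 and 1 region shared by HOXC4 and HOXC5. CCAAT was in 18 of these 27 entries (66.7%), against 34.6% of all 35116 promoters. TATAAA was in 5 of 27 (18.5%), against 11.5%, and TGATNNAT in 3 of 27 (11.1%), against 7.40%. AGGTCA was in 0 of 27, against 13.8%. Entries of 1 gene overlap in source, and a match says only that these letters are in the window.

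In the HOXA cluster 9 of 11 genes rose, with a median log2 fold change of 0.54. Summed over the cluster, RNA was 697 ± 31.8 CPM with STM2457 and 463 ± 8.41 CPM with DMSO (SD, n = 4 each). Among the anterior genes, HOXA3, which acts in the pharyngeal arches and thymus, was at 40.6, 44.0, 45.2 and 47.3 CPM in STM2457 libraries, against 24.7, 26.4, 27.3 and 27.3 CPM in DMSO libraries (log2 fold change 0.74, SE 0.05). Its arms were apart. HOXA2, a gene of the second pharyngeal arch, was at 3.02, 3.01, 4.04 and 3.35 CPM in STM2457 libraries, against 3.49, 3.35, 3.79 and 3.05 CPM in DMSO libraries. Its arms overlapped, and the log2 fold change of -0.03 (95% interval -0.26 to 0.20) did not pass the test (edgeR adjusted p = 0.843).

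Among the central HOXA genes, HOXA5, which acts in lung development in mice, was at 149.6, 144, 175 and 144 CPM in STM2457 libraries, against 109, 106, 105 and 114 CPM in DMSO libraries (log2 fold change 0.50, SE 0.06). STM2457 replicate 3 was its highest library, and the arms did not overlap. HOXA7 was at 22.0, 22.3, 23.7 and 21.1 CPM in STM2457 libraries, against 17.8, 18.5, 18.5 and 17.7 CPM in DMSO libraries (log2 fold change 0.30, SE 0.04), also without overlap, and did not pass on the ERCC scale (0.11, edgeR adjusted p = 0.215). HOXA6, which lies between them, was at 30.7, 25.3, 38.4 and 28.5 CPM in STM2457 libraries, against 29.3, 28.4, 28.3 and 30.8 CPM in DMSO libraries, and STM2457 replicate 2 was below every DMSO library while STM2457 replicate 3 was above every DMSO library. Its log2 fold change of 0.07 (95% interval -0.14 to 0.28) did not pass the test (edgeR adjusted p = 0.582) and was -0.12 on the ERCC scale. RefSeq places transcripts of HOXA3 over HOXA4, HOXA5 and HOXA6, and of HOXA9 and HOXA10 under a shared read-through gene, so their counts can be split uncertainly.

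The 4 posterior HOXA genes all rose. HOXA9, a homeobox gene that drives leukaemia when overexpressed, was at 164, 176, 178 and 169 CPM in STM2457 libraries, against 105, 107, 108 and 108 CPM in DMSO libraries (log2 fold change 0.68, SE 0.03). HOXA10, which patterns the uterus, was at 121, 123, 121 and 113 CPM in STM2457 libraries, against 71.6, 71.2, 72.8 and 74.1 CPM in DMSO libraries (log2 fold change 0.72, SE 0.03). HOXA11, which acts in the forearm and, in mice, in the kidney, was at 68.6, 65.4, 67.4 and 61.7 CPM in STM2457 libraries, against 40.7, 39.5, 39.3 and 41.1 CPM in DMSO libraries (log2 fold change 0.71, SE 0.04). HOXA9, HOXA10 and HOXA11 lay within 0.04 of one another on the log2 scale, with no overlap between arms. HOXA13, mutated in hand-foot-genital syndrome, was at 40.3, 35, 41.2 and 36.2 CPM in STM2457 libraries, against 26.6, 26.4, 24.5 and 27.1 CPM in DMSO libraries (log2 fold change 0.54, SE 0.06), again with all STM2457 libraries on top.

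In the HOXB cluster all 9 tested genes rose, with a median log2 fold change of 0.50 and a summed level of 1159 ± 45.3 CPM with STM2457 and 692 ± 12.2 CPM with DMSO (SD, n = 4 each). HOXB2, a hindbrain gene, was at 23.4, 24.6, 26.2 and 23.1 CPM in STM2457 libraries, against 20.5, 19.3, 20.0 and 21.5 CPM in DMSO libraries (log2 fold change 0.26, SE 0.05). HOXB3 was at 58.2, 52.3, 59.8 and 56.0 CPM in STM2457 libraries, against 45.4, 40.8, 43.6 and 47.8 CPM in DMSO libraries (log2 fold change 0.35, SE 0.05). HOXB4, known for expanding blood stem cells, was at 15.7, 15.5, 17.5 and 15.1 CPM in STM2457 libraries, against 10.8, 10.4, 11.9 and 11.9 CPM in DMSO libraries (log2 fold change 0.50, SE 0.06). HOXB2 did not pass on the ERCC scale (0.065, edgeR adjusted p = 0.468). HOXB2, HOXB3 and HOXB4 rose by less than 1.5-fold, as did HOXB5 and HOXB13. In each the lowest STM2457 library exceeded the highest DMSO library. HOXB5, which acts in the enteric nervous system, was at 38.7, 38.6, 42.1 and 40.4 CPM in STM2457 libraries, against 29.2, 28.4, 31.2 and 31.7 CPM in DMSO libraries (log2 fold change 0.41, SE 0.04). HOXB6 was at 202, 202, 233 and 195 CPM in STM2457 libraries, against 114, 112, 114 and 117 CPM in DMSO libraries (log2 fold change 0.86, SE 0.05), and HOXB7 at 38.8, 40.4, 40.8 and 38.9 CPM in STM2457 libraries, against 24.3, 24.4, 24.0 and 24.3 CPM in DMSO libraries (log2 fold change 0.71, SE 0.03). STM2457 replicate 3 stood highest in HOXB5, HOXB6 and HOXB7, and the DMSO libraries of HOXB7 were within 1 CPM of each other.

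HOXB8, a gene that holds myeloid progenitors immature when overexpressed, was at 63.5, 65.9, 70.4 and 65.0 CPM in STM2457 libraries, against 39.9, 40.2, 39.9 and 44.2 CPM in DMSO libraries (log2 fold change 0.69, SE 0.04), where DMSO replicate 4 stood apart from the other DMSO libraries but below all STM2457 libraries. HOXB9, a posterior gene, was at 697, 677, 686 and 635 CPM in STM2457 libraries, against 374, 378, 364 and 379.6 CPM in DMSO libraries (log2 fold change 0.85, SE 0.03, edgeR adjusted p = 2.54e-10). The HOXB9 arms were well apart. HOXB13, a prostate gene at the far end of the cluster, was at 36.0, 34.9, 35.3 and 34.3 CPM in STM2457 libraries, against 33.3, 33.2, 31.7 and 30.6 CPM in DMSO libraries (log2 fold change 0.13, SE 0.04, edgeR adjusted p = 0.0136). That difference passed the test without overlap between arms but was the smallest of the 31, and it was -0.07 on the ERCC scale (edgeR adjusted p = 0.361). It also lost its call without DMSO replicate 3 or without DMSO replicate 4. HOXB1 had 1, 0, 1 and 2 counts in STM2457 libraries, against 0, 0, 0 and 0 counts in DMSO libraries, too few to test.

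**Figure D2:**
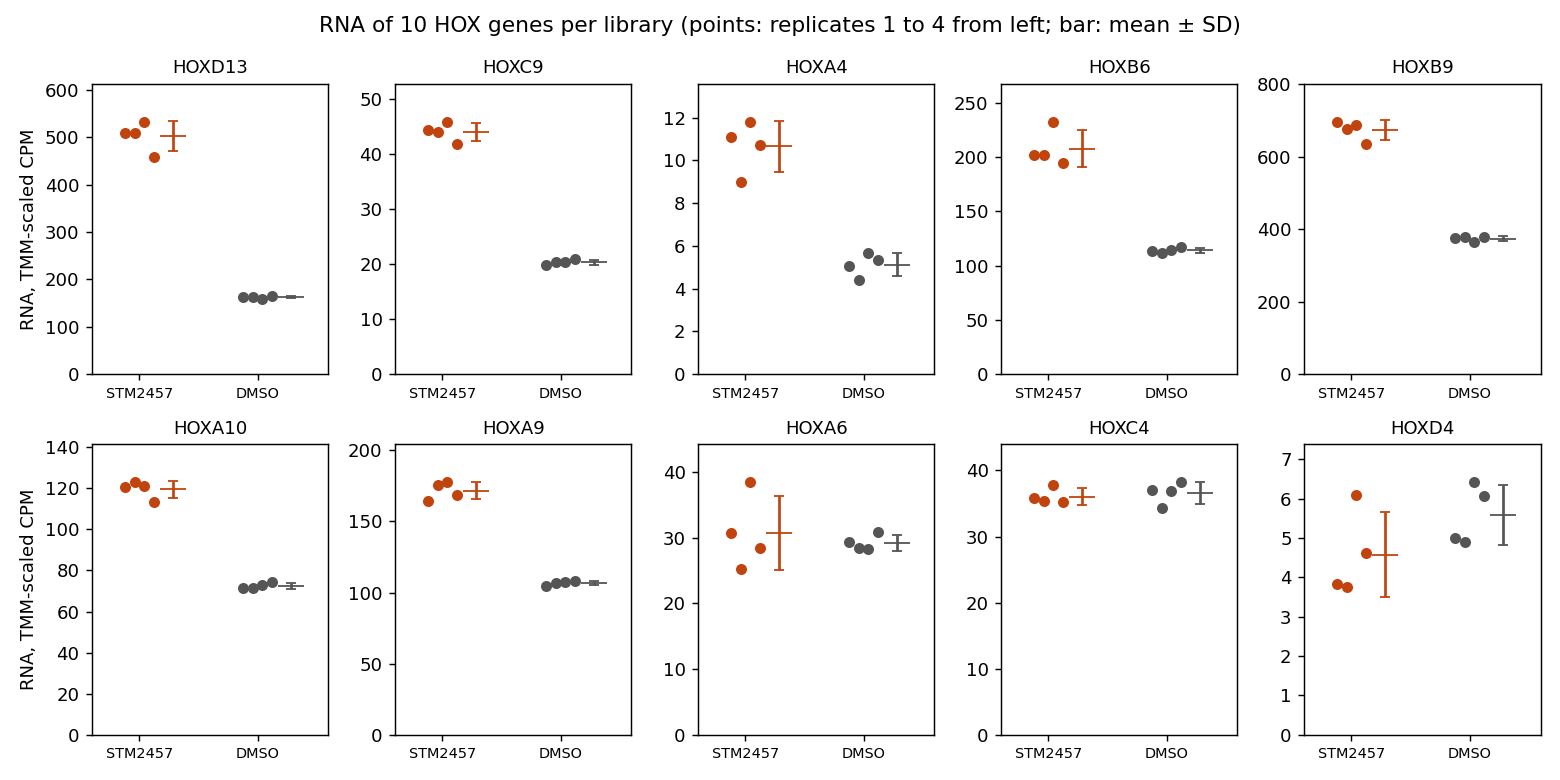
RNA level (TMM-scaled CPM, axis from 0) of 10 HOX genes in each library, STM2457 left and DMSO right, with mean ± SD beside the points. In HOXD13, HOXC9, HOXA4, HOXB6, HOXB9, HOXA10 and HOXA9 the arms do not overlap, and in HOXA6, HOXC4 and HOXD4 they do.

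In the HOXC cluster 6 of 9 genes rose, with a median log2 fold change of 0.38 and a summed level of 172 ± 6.98 CPM with STM2457 and 129 ± 2.61 CPM with DMSO (SD, n = 4 each). Beside HOXC9, the posterior gene HOXC11 was at 14.6, 15.0, 15.8 and 16.0 CPM in STM2457 libraries, against 9.70, 10.5, 9.71 and 10.5 CPM in DMSO libraries (log2 fold change 0.60, SE 0.05). HOXC10, active in lumbar motor neurons, was at 23.3, 22.3, 23.2 and 20.3 CPM in STM2457 libraries, against 18.2, 18.3, 17.4 and 17.9 CPM in DMSO libraries (log2 fold change 0.31, SE 0.05). HOXC13, which controls hair keratins, was at 19.7, 17.4, 18.4 and 17.2 CPM in STM2457 libraries, against 13.9, 13.3, 12.5 and 12.9 CPM in DMSO libraries (log2 fold change 0.46, SE 0.06). In these 3 genes the arms did not overlap. HOXC8, a thoracic gene, was at 13.1, 12.5, 13.7 and 12.4 CPM in STM2457 libraries, against 9.99, 10.0, 9.54 and 10.2 CPM in DMSO libraries (log2 fold change 0.38, SE 0.05), also without overlap. On the ERCC scale HOXC10 (0.12, edgeR adjusted p = 0.182) and HOXC8 (0.18, edgeR adjusted p = 0.0524) did not pass. HOXC6 was at 23.0, 19.1, 22.5 and 20.2 CPM in STM2457 libraries, against 19.7, 18.6, 18.2 and 19.0 CPM in DMSO libraries (log2 fold change 0.17, SE 0.06, edgeR adjusted p = 0.0359), and it was the 1 gene called higher whose arms overlapped. The HOXC6 call was lost without any 1 of STM2457 replicates 1 and 3 and DMSO replicates 2, 3 and 4 (log2 fold change 0.13 to 0.17), and on the ERCC scale its change was -0.03 (edgeR adjusted p = 0.797).

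The 3 HOXC genes that did not pass were HOXC4, HOXC5 and HOXC12. HOXC4 was at 35.8, 35.4, 37.9 and 35.2 CPM in STM2457 libraries, against 37.1, 34.3, 36.9 and 38.2 CPM in DMSO libraries, with overlapping arms and a 95% interval of -0.11 to 0.07 around a log2 fold change of -0.02. That interval leaves out the increases of its paralog HOXB4 and of HOXC8 in the same cluster. HOXC12 was at 1.79, 1.30, 2.07 and 1.80 CPM in STM2457 libraries, against 1.62, 1.58, 1.19 and 1.88 CPM in DMSO libraries, with overlapping arms (log2 fold change 0.14, 95% interval -0.21 to 0.49). HOXC5 had 17, 14, 22 and 23 counts in STM2457 libraries, against 10, 9, 19 and 11 counts in DMSO libraries, with a log2 fold change of 0.74 and an SE of 0.30 (edgeR adjusted p = 0.0591). With the replicate number as a block HOXC5 passed at 0.75 (edgeR adjusted p = 0.0195), and it also passed without STM2457 replicate 2 (0.87) and without DMSO replicate 3 (1.06). HOXC5 met the filter on low counts only through its STM2457 libraries, where it was higher, so no weight is put on these calls. RefSeq places HOXC4, HOXC5 and HOXC6 transcripts over one another, and the strand setting of the counting is not given in the sources used here, so counts of these genes and of genes with an antisense partner (HOXC10, HOXC11, HOXC13, HOXD1 and several HOXA and HOXB genes) can hold reads of the other.

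In the HOXD cluster 7 of 8 tested genes rose, with a median log2 fold change of 0.46. Its summed level was 608 ± 36.2 CPM with STM2457 and 236 ± 5.34 CPM with DMSO (SD, n = 4 each), a ratio of 2.58 that was 1.44 without HOXD13. HOXD8 was at 9.95, 10.2, 10.9 and 8.96 CPM in STM2457 libraries, against 7.68, 6.95, 7.0 and 7.95 CPM in DMSO libraries (log2 fold change 0.43, SE 0.07). HOXD9 was at 14.7, 16.6, 20.1 and 19.1 CPM in STM2457 libraries, against 9.78, 9.44, 12.7 and 12.9 CPM in DMSO libraries (log2 fold change 0.65, SE 0.12). HOXD10, a gene of lumbar motor neurons and limbs, was at 50.8, 51.1, 62.2 and 55.1 CPM in STM2457 libraries, against 33.6, 32.2, 35.2 and 36.8 CPM in DMSO libraries (log2 fold change 0.67, SE 0.06). HOXD9 libraries of replicates 3 and 4 were higher than those of replicates 1 and 2 in both arms, and no arm overlapped the other in these 3 genes. HOXD11, a forearm and, in mice, kidney gene, was at 11.4, 9.42, 11.6 and 9.11 CPM in STM2457 libraries, against 8.03, 7.90, 8.74 and 8.61 CPM in DMSO libraries (log2 fold change 0.32, SE 0.08). Its highest DMSO library reached 8.74 CPM, just under the lowest STM2457 library, and the call was lost on replicates 3 and 4 alone and on the ERCC scale.

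At the anterior end, HOXD1 was at 1.40, 1.28, 1.34 and 1.46 CPM in STM2457 libraries, against 0.915, 0.942, 0.952 and 1.09 CPM in DMSO libraries (log2 fold change 0.49, SE 0.11), and HOXD3 at 5.62, 6.03, 6.67 and 6.63 CPM in STM2457 libraries, against 4.63, 4.65, 5.42 and 5.25 CPM in DMSO libraries (log2 fold change 0.32, SE 0.08). Both rose without overlap at low levels, and neither passed on the ERCC scale. HOXD1 also lost its call on replicates 3 and 4 alone (0.45, edgeR adjusted p = 0.0972). HOXD4 was at 3.84, 3.76, 6.09 and 4.61 CPM in STM2457 libraries, against 4.99, 4.89, 6.41 and 6.06 CPM in DMSO libraries, with overlapping arms and a log2 fold change of -0.29 (SE 0.14, edgeR adjusted p = 0.116). Within each replicate number the STM2457 library of HOXD4 was the lower one, and with the number as a block it passed as lower (-0.30, edgeR adjusted p = 0.00455). It was called lower without STM2457 replicate 3 as well (-0.46, edgeR adjusted p = 0.00462). The same held with no filter (-0.30, edgeR adjusted p = 0.00423) and on the ERCC scale (-0.49, edgeR adjusted p = 0.00196). Replicates 1 and 2 alone also gave a lower call (-0.39, edgeR adjusted p = 0.00671). On replicates 3 and 4 alone HOXD4 did not pass (-0.23, edgeR adjusted p = 0.190), nor did it with DESeq2. RefSeq places HOXD3 and HOXD4 over each other, as it does HOXB3 and HOXB4, so their reads can be split uncertainly. HOXD12 had 2, 6, 6 and 3 counts in STM2457 libraries, against 5, 7, 5 and 3 counts in DMSO libraries, too few to test.

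By position, 6 of 7 tested anterior genes rose (median log2 fold change 0.35), 11 of 15 central genes (0.43) and 14 of 15 posterior genes (0.65). These counts, and those by cluster above, stand against 26.2% higher among all genes tested. Summed RNA was 1.37 times as high with STM2457 as with DMSO over the anterior genes and 1.46 times over the central genes. Over the posterior genes it was 1.92 times, and 1.67 times without HOXD13. Of the 1288 CPM with STM2457 and 769 CPM with DMSO left without HOXD13, HOXB9 alone held 674 and 374 CPM. The 4 tested genes of paralog group 9 all rose, with log2 fold changes of 0.65 to 1.11, as did all 4 of group 13 (0.13 to 1.63), all 3 of group 10 (0.31 to 0.72) and all 3 of group 11 (0.32 to 0.71). Group 4 had the widest split in direction, with HOXA4 at 1.06 and HOXB4 at 0.50 but HOXC4 at -0.02 and HOXD4 at -0.29. Across the 37 genes, Spearman's rho of paralog number and RNA log2 fold change was 0.20, a description over genes that share libraries and neighbours. Whether positions or clusters differ was not tested.

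Footprints on HOX mRNAs were higher too. Of the 39 genes 33 were in the table, 30 of these passed the filter (10 or more recovered reads, averaged over the Ribo-seq libraries), and 13 were higher (limma on log2(signal + 1), adjusted p under 0.05 over 10906 genes), against 9.59% of all genes tested. No HOX gene was lower in footprints, against 6.13% of all genes. The median HOX footprint log2 fold change was 0.47, against -0.02 over all genes, and in 20 of 30 HOX genes both STM2457 libraries were above both DMSO libraries, against 25.7% of all genes. In no HOX gene were both below, against 28.4%. The 13 were HOXA5, HOXA9, HOXA10, HOXA11, HOXB2, HOXB5, HOXB6, HOXB8, HOXB9, HOXC9, HOXC11, HOXD10 and HOXD13, all of them also higher in RNA. Of these, HOXD10 reached the minimum of 10 reads only through its STM2457 libraries. By position, 8 of 13 posterior genes, 4 of 13 central genes and 1 of 4 anterior genes were called. Over the tested genes of each position the median log2 fold change was 0.61 posterior, 0.36 central and 0.65 anterior. The medians did not rank the positions as the calls did, and whether positions differ was not tested.

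HOXD13 footprint signal, a read count scaled per library by the authors, was 3084 and 3026 in the STM2457 libraries, against 1291 and 1258 in the DMSO libraries (log2 fold change 1.26, SE 0.11, limma adjusted p = 1.32e-13). HOXB9 signal was 5488 and 5236 in the STM2457 libraries, against 3196 and 2974 in the DMSO libraries (log2 fold change 0.80, SE 0.09), and HOXB6 signal 2226 and 2284 in the STM2457 libraries, against 1194 and 1181 in the DMSO libraries (log2 fold change 0.92, SE 0.11). The replicates of these 3 genes were close together and the arms far apart. HOXC9 signal was 862 and 1054 in the STM2457 libraries, against 505 and 386 in the DMSO libraries (log2 fold change 1.11, SE 0.16), close to its RNA change. HOXB8 signal was 627 and 609 in the STM2457 libraries, against 322 and 333 in the DMSO libraries (log2 fold change 0.92, SE 0.18), and HOXA10 signal 1204 and 1249 in the STM2457 libraries, against 795 and 790.4 in the DMSO libraries (log2 fold change 0.63, SE 0.13). Again both STM2457 libraries were above both DMSO libraries in all 3.

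HOXA9 signal was 729 and 1144 in the STM2457 libraries, against 547 and 651 in the DMSO libraries (log2 fold change 0.61, SE 0.16), with STM2457 replicate 2 well above replicate 1. HOXA11 signal was 1128 and 1031 in the STM2457 libraries, against 885 and 752 in the DMSO libraries (log2 fold change 0.40, SE 0.14, limma adjusted p = 0.0381), and HOXC11 signal 197 and 332 in the STM2457 libraries, against 122 and 111 in the DMSO libraries (log2 fold change 1.13, SE 0.29). The arms did not overlap in these 3 genes, but each call was lost when 1 library was left out. HOXA9 was 0.29 without STM2457 replicate 2 and 0.49 without DMSO replicate 1, HOXA11 was 0.34 without STM2457 replicate 1 and 0.28 without DMSO replicate 2, and HOXC11 was 0.76 without STM2457 replicate 2, none of which passed. HOXA3 signal of 87.4 and 215 in the STM2457 libraries, against 51.5 and 101 in the DMSO libraries (log2 fold change 0.91, SE 0.39) did not pass (limma adjusted p = 0.107), and the arms overlapped. It passed in edgeR on recovered reads (1.07, edgeR adjusted p = 0.0405), without STM2457 replicate 1 (1.56) and without DMSO replicate 2 (1.40), but was 0.27 without STM2457 replicate 2 (limma adjusted p = 0.825) and 0.43 without DMSO replicate 1 (limma adjusted p = 0.603). The 17 tested members that did not pass ran from -0.53 in HOXB3 to 0.91 in HOXA3. The 3 paralog 4 genes among them were all near 0 (HOXA4 -0.08, HOXB4 -0.04, HOXC4 -0.12), although HOXA4 and HOXB4 RNA rose.

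**Figure D3:**
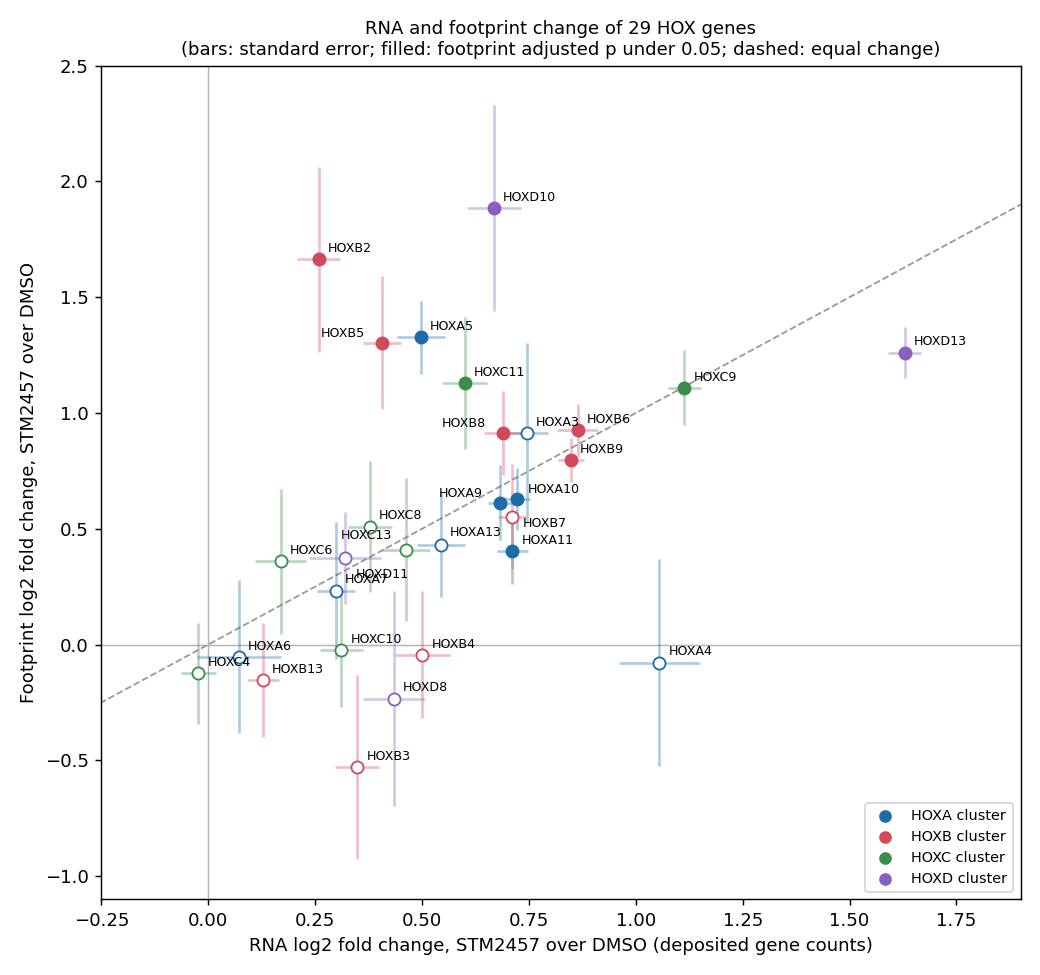
RNA log2 fold change (x) and footprint log2 fold change (y), STM2457 over DMSO, of 29 HOX genes tested in both, with standard errors and a dashed line of equal change; filled points passed the footprint test. HOXD10, HOXB2, HOXB5 and HOXA5 lie well above the line, and HOXA4 and HOXB3 below it.

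Spearman's rho of RNA and footprint log2 fold change over the 30 genes was 0.47, given as a description across genes. Of the genes above the line, HOXB2, HOXB5 and HOXA5 were the 3 HOX genes with a higher translational efficiency, the footprint signal relative to RNA signal (limma interaction of assay and arm with a weight per assay). That is 3 of 30 HOX genes, against 0.229% of all 10906 genes tested, and 0 lower, against 0.807%. The median HOX efficiency change was 0.02 and that of all genes 0.01. The 27 members that did not pass ran from -0.99 in HOXA4 to 1.27 in HOXD10, with HOXB9 (0.05), HOXA9 (0.05) and HOXC9 (0.09) of paralog group 9 near 0.

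HOXB2 footprint signal was 159.5 and 129 in the STM2457 libraries, against 51.5 and 38.6 in the DMSO libraries (log2 fold change 1.66, SE 0.40), from 42 and 33 recovered reads with STM2457 and 16 and 8 with DMSO. Its efficiency was 0.389 with STM2457 and 0.143 with DMSO in the authors' deposited table, where HOXB2 RNA averages replicates 1 to 3 in both arms. The fit holds all 4 RNA-seq libraries per arm, and in it the HOXB2 change passed the test (log2 change 1.48, SE 0.23, limma adjusted p = 0.00409, range over the alternatives 0.000164 to 0.0695). Its RNA was 1.20 times as high with STM2457 as with DMSO. The footprint call was lost without Ribo-seq STM2457 replicate 1 (1.51, limma adjusted p = 0.0579). Without Ribo-seq DMSO replicate 2, which holds 8 HOXB2 reads, the efficiency call was lost (1.28, limma adjusted p = 0.0695).

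HOXB5 footprint signal was 251 and 254 in the STM2457 libraries, against 113 and 91.6 in the DMSO libraries (log2 fold change 1.30, SE 0.29), from 66 and 65 recovered reads with STM2457 and 35 and 19 with DMSO. Its efficiency in the authors' deposited table was 0.633 with STM2457 and 0.323 with DMSO, with a fitted log2 change 1.00, SE 0.21 (limma adjusted p = 0.0306, range over the alternatives 0.000558 to 0.294). HOXA5, the paralog of HOXB5, had a footprint signal of 968 and 1078 in the STM2457 libraries, against 418 and 395 in the DMSO libraries (log2 fold change 1.33, SE 0.16), from 255 and 276 recovered reads with STM2457 and 130 and 82 with DMSO. Its efficiency in the authors' deposited table was 0.568 with STM2457 and 0.316 with DMSO, with a fitted log2 change 0.89, SE 0.20 (limma adjusted p = 0.0440, range over the alternatives 0.000217 to 0.316). So both paralog group 5 genes with footprints were called, while HOXC5 was not in the table. The HOXB5 call was lost without any 1 of the 4 Ribo-seq libraries (efficiency change 0.85 to 1.14) and without RNA-seq STM2457 replicate 1. The HOXA5 call was lost in the same cases, without RNA-seq STM2457 replicate 4, without each RNA-seq DMSO replicate and with no filter on low reads.

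HOXD10 had the largest footprint change of the tested HOX genes, with a signal of 122 and 141 in the STM2457 libraries, against 22.5 and 53.0 in the DMSO libraries (log2 fold change 1.89, SE 0.44, limma adjusted p = 0.00144), from 32 and 36 recovered reads with STM2457 and 7 and 11 with DMSO. Its DMSO libraries alone averaged under the minimum of 10 reads, so HOXD10 entered the test only through its STM2457 libraries, where it was higher. The footprint call was lost without Ribo-seq DMSO replicate 1 (1.29, limma adjusted p = 0.0520). Its efficiency change of 1.27 (SE 0.35) did not pass (limma adjusted p = 0.106), but did with a replicate block (limma adjusted p = 0.0341), with 1 spread shared by both assays (limma adjusted p = 0.0259), with RNA-seq replicates 1 and 2 alone (1.34) and without RNA-seq STM2457 replicate 3 (1.36). It was 1.87 without Ribo-seq DMSO replicate 2 (limma adjusted p = 0.0392) and 0.68 without Ribo-seq DMSO replicate 1 (limma adjusted p = 0.656).

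HOXA4 was the member whose RNA and footprints stood furthest apart in the other direction. Its footprint signal was 57.0 and 66.4 in the STM2457 libraries, against 51.5 and 81.9 in the DMSO libraries, from 15 and 17 recovered reads with STM2457 and 16 and 17 with DMSO, with overlapping arms and a log2 fold change of -0.08 (95% interval -0.98 to 0.82), beside an RNA change of 1.06. The efficiency was 0.286 with STM2457 and 0.616 with DMSO in the authors' deposited table, and the fitted log2 change -0.99, SE 0.32 did not pass (limma adjusted p = 0.216). HOXB3 footprint signal was 114 and 46.9 in the STM2457 libraries, against 106 and 106 in the DMSO libraries, where the STM2457 libraries stood on either side of the DMSO libraries (log2 change -0.79, SE 0.31 in efficiency, limma adjusted p = 0.389). HOXD13, with the largest RNA change, had an efficiency of 0.678 with STM2457 and 0.872 with DMSO in the authors' deposited table (log2 change -0.31, SE 0.15, limma adjusted p = 0.552). With 1 spread shared by both assays, HOXA4 (limma adjusted p = 0.0182) and HOXD13 (limma adjusted p = 0.0240) passed as lower in efficiency, and HOXB3 passed as lower without Ribo-seq STM2457 replicate 1 (-1.42, limma adjusted p = 0.0154) but was -0.16 without replicate 2 (limma adjusted p = 0.952). HOXD1, HOXD3 and HOXD9 were in the table below the read minimum, at 8 and 7 recovered reads with STM2457 and 2 and 2 with DMSO for HOXD1, 6 and 9 recovered reads with STM2457 and 3 and 2 with DMSO for HOXD3 and 10 and 15 recovered reads with STM2457 and 7 and 7 with DMSO for HOXD9.

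**Figure D4:**
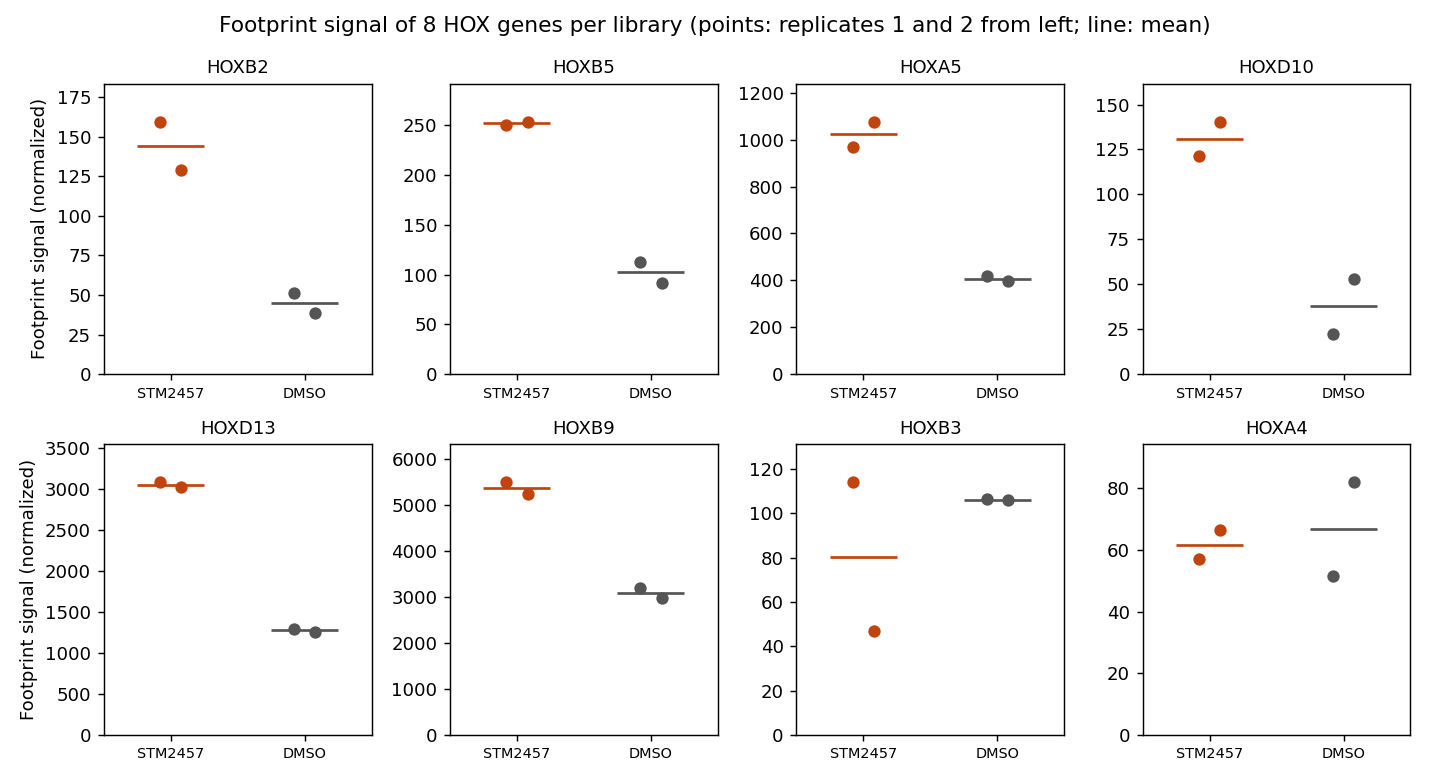
Footprint signal (normalized by the authors, axis from 0) of 8 HOX genes in each Ribo-seq library, STM2457 left and DMSO right, with a line at the mean. In HOXB2, HOXB5, HOXA5, HOXD10, HOXD13 and HOXB9 both STM2457 libraries lie above both DMSO libraries, and in HOXB3 and HOXA4 the arms overlap.

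The counts of the gene lists that follow stand against 26.2% higher and 21.6% lower among all genes tested for RNA, and against 12.1% and 47.1% on the ERCC scale. Of 16 tested HOX long noncoding RNAs 5 rose and 2 fell (median log2 fold change 0.18, against -0.01 on the ERCC scale with 1 higher and 3 lower), with the share that rose close to that of all genes. HOXA10-AS, antisense to HOXA10, rose to 10.9 ± 0.398 CPM with STM2457, against 5.93 ± 0.505 CPM with DMSO (SD, n = 4 each; log2 fold change 0.88). HOTAIRM1, a myeloid RNA of the HOXA cluster, rose by 0.29 and HOXC-AS1 by 0.34. HAGLR, which is transcribed against HOXD1, fell to 15.0 ± 0.331 CPM with STM2457, against 20.5 ± 1.14 CPM with DMSO (log2 fold change -0.45), while HOXD1 rose. HOTAIR, a HOXC RNA known to bind Polycomb complexes and named here after its values were seen, had 411, 377, 387 and 429 counts in STM2457 libraries, against 438, 403, 365 and 471 counts in DMSO libraries, with overlapping arms. The 6 microRNA genes of the clusters had 0 to 3 counts per library and were not tested.

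Genes that flank the clusters had a median RNA log2 fold change of -0.03, and of 16 tested 3 rose and 4 fell (1 and 11 on the ERCC scale, with a median of -0.23), so the share on the TMM scale was close to that of all genes. SMUG1, a DNA repair glycosylase beside HOXC, fell to 20.9 ± 1.9 CPM with STM2457, against 39.8 ± 1.14 CPM with DMSO (log2 fold change -0.93). HIBADH beside HOXA (-0.33) and MTX2 beside HOXD (-0.20), both mitochondrial protein genes, fell as well, and NFE2 rose by 1.11 at under 1 CPM.

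Among other homeobox genes of the same wider family, 5 of 8 tested rose and 1 fell (median log2 fold change 0.44, and 0.24 on the ERCC scale with 4 higher and 2 lower). CDX2, a ParaHox gene that activates HOX genes, rose to 58.2 ± 0.723 CPM with STM2457, against 33.3 ± 0.812 CPM with DMSO (0.80). EN2 (0.77), EN1 (1.05) and GBX2 (0.58), which pattern the midbrain and hindbrain, rose too. Of 9 tested axial patterning factors 6 rose and 1 fell (median 0.22, and 0.03 on the ERCC scale with 3 higher and 2 lower), among them CDX2, the hindbrain factor EGR2 (0.60), and GMNN (0.16, and -0.04 on the ERCC scale).

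Of 10 TALE cofactor genes 4 rose and 2 fell (median log2 fold change 0.10, and -0.10 on the ERCC scale with 2 higher and 5 lower). MEIS2 (0.64), MEIS1 (0.27) and PBXIP1, a PBX-binding protein (0.45), were among those that rose. None of 9 cofactors with footprints passed the footprint test, where 9.59% of all genes were higher and 6.13% lower. Of 32 Polycomb genes 14 rose and 5 fell (median 0.04, and -0.16 on the ERCC scale with 8 higher and 17 lower), among them the PRC1 genes CBX8 (0.77) and KDM2B (0.33) and the PRC2 partner JARID2 (0.60). Of 24 Trithorax and activator genes 15 rose and 3 fell (median 0.21, and 0.02 on the ERCC scale with 9 higher and 6 lower). These included the acetyltransferase KAT6A (0.99), the methyltransferases NSD1 (0.73) and ASH1L (0.53), and CTCF (0.49), which insulates HOX domains. Of 19 tested retinoic acid pathway genes 8 rose and 6 fell (median 0.09, and -0.11 on the ERCC scale with 3 higher and 7 lower). NRIP1 (0.90), DHRS3 (0.79) and the receptor RARA (0.41) rose, and the corepressor NCOR1 fell (-0.37).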

How the data were processed

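RNA-seq and Ribo-seq libraries of HEK293T cells were grouped by assay and arm from the titles in the labels. RNA-seq was deposited as raw counts for genes and 92 ERCC spike-ins. The build was GRCh38.p12, per the submitters' processing notes, which also name SAMtools 1.10, Subread 2.0.3 (featureCounts), STAR 2.7.3a, DESeq2, UMI-tools 1.1.2, FastQC 0.11.9 and bedtools 2.29.2 without saying what each did. The deposited table holds a signal per library, normalized by the authors, their efficiency per arm as a ratio of mean footprint to mean RNA signal, and its change on a log2 scale. The authors' mean DMSO RNA signal equals that of replicates 1 to 3 for all 12224 genes. Their STM2457 efficiency of HOXB2 and HOXA5 likewise matches a mean RNA signal of replicates 1 to 3. The efficiency fits described below instead hold all 4 RNA-seq libraries per arm, unless libraries are said to be left out. Per the values of the deposited footprint columns, 100% lie within 0.1 of a whole multiple of 1 read, so reads were recovered. Taken in such multiples, the table's RNA signal came to a median of 47.1% of the deposited gene counts for 33 HOX genes and 62.3% for all, and to 177% for HOXD11, so it rests on other reads than the gene counts; which region was counted is not given in the sources used here.

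RNA was tested on the deposited counts, without spike-ins, by the quasi-likelihood method of edgeR 4.0.16 (R 4.3.3) after TMM scaling and filterByExpr, and called at a Benjamini-Hochberg adjusted p under 0.05. The SE of an RNA change is its size over the root of the F statistic. Footprints and efficiency were tested with limma 3.58.1 on log2(signal + 1) of genes with at least 10 reads per footprint library on average, and fold changes are on that scale, which understates changes of low genes. Efficiency is the interaction of assay and arm with a weight per assay. Scripts were tested on simulated data. Symbols were found for 60306 of 60662 gene IDs.

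All HOX genes are reported, with values per library for those of at least 1 CPM, and from other lists the counts and the 4 members of smallest p. The values of a few of these genes are not reported here, though counts and medians include them. Members and lists were chosen with earlier results of these data known. Same-numbered RNA-seq libraries of the 2 arms deviated together, with correlations of 0.54, 0.65, 0.42 and 0.12 for numbers 1 to 4. Each was over the 0.1 set for pairing, and the pairing is read from the data, not from the labels. Libraries of unlike number ran from -0.67 to 0.67, the highest being STM2457 replicate 3 with DMSO replicate 4. STM2457 replicate 4 went more with DMSO replicate 3 (0.41) than with DMSO replicate 4. These correlations therefore do not single out the replicate number as the pairing. For Ribo-seq the correlation of same-numbered libraries was 0.0064. Alternatives were DESeq2 1.42.0, ERCC scaling, no filter, a replicate block, pseudocounts of 0.5 and 10, edgeR on recovered reads, subsets of libraries and, chosen after seeing the data, the table's RNA signal and leaving out RNA-seq libraries for efficiency. Motifs were searched on both strands of RefSeq promoters.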

Additional observations from a re-analysis of the deposited data

Results flagged for a closer look

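HOXB8 RNA in DMSO replicate 4 was 44.2 CPM, apart from 39.9, 40.2 and 39.9 CPM in DMSO replicates 1 to 3, with a gap of 0.916 of the range of the group. It remained below all 4 STM2457 libraries. It was 1 of 74 groups of 4 libraries examined (1.35%), where chance flags about 5%.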

How the results depend on the processing

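For RNA, 31 HOX genes were higher with DESeq2 as well, and 29 to 32 with libraries left out (0 to 1 lower). A replicate block gave 32 higher and 1 lower, no filter 32 and 1, replicates 1 and 2 alone 29 and 1, and replicates 3 and 4 alone 29 and 0. ERCC scaling moved the count of all genes to 2159 higher and 8383 lower, and of HOX genes to 22 and 2. It turned HOXA6 to -0.12, HOXC12 to -0.056, HOXC6 to -0.025, HOXB13 to -0.069 and GMNN to -0.041. On replicates 1 and 2 HOXA6 was -0.055 and HOXC12 -0.062, and on replicates 3 and 4 HOXA2 was 0.11. With libraries left out HOXA2 ranged from -0.13 to 0.019 and HOXA6 from -0.051 to 0.16. The table's RNA signal with limma gave 2991 higher genes in all and 25 of 30 HOX genes higher, without HOXA7, HOXC6 and HOXB13.

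For footprints the 13 HOX calls held under other pseudocounts, no filter, edgeR (14 calls) and the replicate block, and numbered 11 to 13 with libraries left out, where genes lower in all numbered 262 to 620, HOXA4 ranged from -0.41 to 0.25 and HOXB3 from -1.16 to 0.10. Efficiency calls were few and unsteady. A shared spread for both assays gave 339 higher and 486 lower genes, with 4 and 2 HOX genes, edgeR 124 and 301 with 3 and 0, no filter 15 higher, and libraries left out 7 to 27 higher and 30 to 102 lower, with 1 to 4 and 0 to 1 HOX genes. The HOX median efficiency change was -0.00399 with edgeR and -0.075 to 0.11 with libraries left out. The replicate block gave 4 HOX efficiency calls and 0 lower, and changed no HOX call other than those of HOXC5, HOXD4 and HOXD10. The cause of these changes was not tested. Precision in footprints and efficiency is limited by 2 Ribo-seq libraries per arm and by few reads, 8 to 42 per library in HOXB2 and 7 to 36 in HOXD10.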
